A study of Mus musculus with 14 samples.

Results

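The loss of FHL2 was compared between heart and gonadal white adipose tissue (gWAT) in 12966 genes that were detected in both, of 33459 in the count table. A gene was taken when it reached 1 CPM (counts scaled to the library's total) in at least 3 libraries of each tissue. The aim was that an effect could be measured on either side. The series holds 14 mRNA libraries of C57BL/6 mice at 21 weeks of age, after 8 weeks on a high-fat diet. Heart came from 4 WT and 4 FHL2-/- (KO) samples numbered 1 to 4, and gWAT from 3 WT and 3 KO samples numbered 1, 3 and 4. A gene could thus enter through 1 gWAT genotype alone. Among such genes were Fhl2, Pcp4l1 and Gdf15, each under 1 CPM in every gWAT KO library. All groups had the high-fat diet, so no value here separates the knockout from its setting on that diet. The allele's removed part is not given in the sources used here. Nothing in the labels says that each library is a separate mouse, and the p-values then measure only the spread between these samples.

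FHL2 (four-and-a-half LIM domains 2) is a small protein built of LIM zinc-finger domains that binds transcription factors and signalling proteins as a cofactor. It is abundant in heart muscle and scarce in many other tissues. gWAT of mice on a high-fat diet holds adipocytes, their progenitors, mesothelium and many macrophages, including lipid-laden ones that gather around dying adipocytes. Heart is mostly cardiomyocytes by RNA, with fibroblasts, endothelium and some macrophages, and lives on fatty acid oxidation.

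Libraries held 10835092 to 13272412 counts in heart and 15105019 to 16040188 in gWAT. A set of 6 heart muscle markers (Myh6, Myl2, Tnnt2, Tnni3, Actc1 and Ryr2) summed to 35760 to 42030 CPM in heart and to 15.1 to 21.6 CPM in gWAT. A set of 6 white adipocyte markers (Adipoq, Lep, Retn, Cfd, Plin1 and Cidec) summed to 7657 to 13690 CPM in gWAT and to 13.8 to 148 CPM in heart, so the heart libraries carried a small and uneven amount of RNA of these markers. Both tissues matched their labels. Heart libraries numbered 1 and 2 stood apart from those numbered 3 and 4 in both genotypes: 15 atrial genes summed to 6660 to 9167 CPM in the former and to 1196 to 2622 CPM in the latter. In gWAT, WT library 1 stood apart from WT 3 and 4, with 3966 CPM in 14 genes of lipid-associated macrophages against 9573 and 7560 CPM. The part of these gaps in the results below was not tested.

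Fhl2 itself (ENSMUSG00000008136, GRCm38 chr1:43123074-43196984) was at 1205, 1247, 1513 and 1632 CPM in the heart WT libraries and at 40.6, 33.5, 44.3 and 40.7 CPM in heart KO. In gWAT the levels were 3.61, 4.99 and 4.58 CPM in WT and 0.376, 0.208 and 0.365 CPM in KO. No KO library overlapped WT in either tissue, which checks the labels. The log2 effect of KO over WT was -5.14 ± 0.15 (SE) in heart and -3.77 ± 0.26 in gWAT. Their difference, 1.37 ± 0.38, did not pass the test across all genes (adjusted p = 0.0875, edgeR quasi-likelihood test with Benjamini-Hochberg adjustment). The gWAT effect rests on KO levels near the detection limit, with 18 Fhl2 reads over all gWAT KO libraries.

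The knockout changed gene expression unequally in the 2 tissues for 176 of the 12966 genes (1.36%, against 1.15% of all 16014 genes tested), and for each of these the effect was larger in gWAT than in heart. In every case the quantity tested was the log2 effect of KO over WT in gWAT less the same effect in heart, in 1 fit of all libraries. The difference was below 0 for 120 genes (0.925%) and above 0 for 56 (0.432%), and at an unadjusted p under 0.05 there were 2151 genes (16.6%). Within gWAT 1495 genes passed (11.5%), 521 higher (4.02%) and 974 lower (7.51%). In heart 1 gene passed, Fhl2 (0.00771%), and 336 had an unadjusted p under 0.05 (2.59%).

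Of the 176 genes, 175 had also passed in gWAT alone. The exception was Lonrf2. None passed in heart alone. Their median effect in size was 1.13 log2 in gWAT against 0.0850 in heart, where all 12966 genes had medians of 0.195 and 0.0798. The heart effect lay within 0.25 log2 of 0 for 156 of the 176 genes, and its 95% interval lay wholly within 0.5 log2 of 0 for 96. For the remaining genes the heart data leave room for a moderate change. The median SE of an effect was 0.151 in gWAT and 0.136 in heart. Both rest on 1 estimate of spread per gene shared by the tissues, with 3 libraries per group in gWAT and 4 in heart. They therefore do not compare how precisely each tissue was measured. The smallest difference that passed was 0.518 log2, and 113 of the 176 genes differed by at least 2-fold. KO and WT libraries did not overlap in gWAT for all 176 genes and in heart for 10 of them, against 27.8% and 2.38% of all genes. The 176 genes were chosen by a test that uses these same values. Their larger size and lack of overlap in gWAT therefore follow in part from that choice and do not add to the test.

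**Figure D1:**
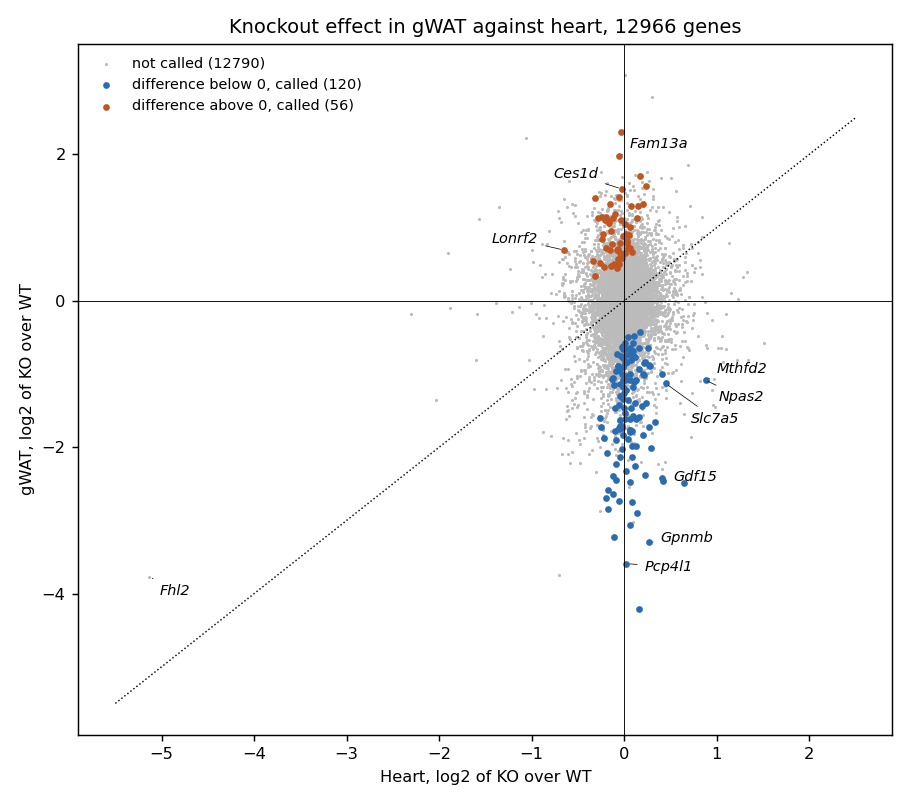
Each point is 1 of the 12966 genes, with the log2 effect of KO over WT in heart on the horizontal axis and in gWAT on the vertical axis, and the dotted line marks equal effects. The 120 blue and 56 orange genes, whose effects differ between the tissues, lie along the vertical axis near 0 in heart, while Fhl2 lies low in both.

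Across all 12966 genes the effects in the 2 tissues were weakly related. As a description across genes, which are not independent and share libraries, Pearson's r was 0.0825 and Spearman's rho 0.0819. Of the 1495 genes that passed in gWAT, 175 (11.7%) differed from heart by the test of the difference and 936 (62.6%) had a heart effect of the same sign, against 52.9% of all genes. For most gWAT changes the data therefore do not show that heart differed, only that heart did not pass by itself.

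The number 176 depends on single libraries. Leaving out gWAT WT 1 raised it to 1232 and leaving out gWAT WT 4 lowered it to 3, with 13 without gWAT WT 3, 18, 16 and 6 without gWAT KO 1, 3 and 4, and 30 to 60 without any 1 heart library. With heart libraries 1 and 2 only, or 3 and 4 only, 1 gene passed, and it was Mthfd2 in both. DESeq2 called 635 genes and limma-voom 68. In heart, WT and KO libraries of the same number deviated together, but so did number 1 with 2 and 3 with 4. With the number as a block in heart 66 genes passed, 51 of them among the 176, whereas with the split of 1 and 2 against 3 and 4 as a term 334 passed. Of the 46 genes with a passing difference that are named below with values, 18 missed the threshold with the block, with adjusted p of 0.0509 to 0.0743: Ctsd, Tpp1, Lrrn4cl, Ahcyl2, Lonrf2, Gpnmb, Mpeg1, Atp6v0a1, Atp6v1a, Mcm3, Pcna, Lss, Insig1, Gdf15, H2-DMb1, Rragd, Fndc5 and Hs6st1.

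Mthfd2 had the smallest p, and its values in the 2 tissues lay on opposite sides of WT. It encodes the mitochondrial methylenetetrahydrofolate dehydrogenase/cyclohydrolase, an enzyme of one-carbon metabolism that is low in most adult tissues. Mthfd2 (ENSMUSG00000005667, chr6:83305691-83325908) was at 13.9, 15.7 and 15.4 CPM in gWAT WT and 7.35, 7.18 and 6.77 CPM in gWAT KO. In heart it was at 7.92, 9.29, 6.80 and 7.04 CPM in WT and 17.4, 14.2, 13 and 12.7 CPM in KO. All KO libraries were below WT in gWAT and above WT in heart, with no overlap in either tissue. KO gWAT was thus near the level of WT heart, and KO heart near that of WT gWAT. The gWAT effect was -1.08 ± 0.14 log2 (adjusted p = 0.000713). In heart it was 0.88 ± 0.13, with an unadjusted p of 6.34e-06 and an adjusted p of 0.0507, just missing the threshold of 0.05. The difference was -1.96 ± 0.19 (95% interval -2.37 to -1.55, adjusted p = 0.000651). It passed in each of 30 alternative fits, with values of -2.06 to -1.85 and a highest adjusted p of 0.0297. The heart effect passed in 8 of the 29 fits that give one, among them DESeq2 (adjusted p = 2.51e-05), and missed in the others, with limma-voom at 0.108.

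The sequence upstream of Mthfd2 is shown because Mthfd2 is a known target of ATF4, the factor of the integrated stress response, which binds amino acid response elements of the form TGATGNAA. The 250 bases before the RefSeq start (GRCm38.p6, chr6:83317605-83317854, minus strand) hold no TGATGNAA on either strand, so no letters are in capitals. This window lies inside the gene span printed above, so the RefSeq start is not the outermost one.
Mthfd2: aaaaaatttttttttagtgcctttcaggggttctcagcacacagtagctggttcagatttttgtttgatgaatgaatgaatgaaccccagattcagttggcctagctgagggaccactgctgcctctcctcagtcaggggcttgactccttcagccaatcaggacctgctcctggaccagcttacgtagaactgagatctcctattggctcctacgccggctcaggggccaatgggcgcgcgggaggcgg
This element stands in 3.45% of all upstream windows of this length that RefSeq gave, and in 1.99% of those of the 12966 genes. Among the genes of the integrated stress response described next it stood in 3 of 25 windows, those of Asns, Chac1 and Vldlr. Of the 3 genes of that list whose effects differed, 2 had an entry, and 0 of their 3 windows held it.

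Of the genes of the integrated stress response and of one-carbon and amino acid supply, 23 were detected in both tissues. Of these 3 (13%) differed, all below 0, and they were Mthfd2 itself, Slc7a5 and Gdf15. The 13% thus counts Mthfd2, the gene with the smallest p, and Gdf15, detected in gWAT through WT alone. Over all genes 1.36% differed. The lists here and below were chosen with earlier results of these data known, so their counts are a description. The median difference over the 23 genes was -0.39 log2, against 0.00 over all genes, and 19 of 23 lay below 0. In gWAT 6 passed as lower and 2 as higher, against 7.51% and 4.02% of all genes. In heart none passed, 18 of 23 effects were above 0, and 4 had an unadjusted p under 0.05, all above 0. Over all genes 2.59% had such a p in heart. The count was 5 without gWAT WT 1, 1 or 2 without any other gWAT library, 2 or 3 without any 1 heart library and 2 with the heart block. Among genes that reach 5 CPM in both tissues the median was -0.16.

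Slc7a5, the large neutral amino acid transporter, was at 8.94, 10.02 and 10.7 CPM in gWAT WT and 4.29, 5.10 and 4.17 CPM in gWAT KO. In heart it was at 9.64, 7.95, 7.11 and 5.35 CPM in WT and 13.1, 9.26, 9.47 and 9.19 CPM in KO. The gWAT groups were apart, and the heart groups overlapped, with KO 1 the highest. The effects were -1.13 ± 0.19 in gWAT and 0.45 ± 0.17 in heart (unadjusted p = 0.0211), and the difference was -1.57 ± 0.26 (adjusted p = 0.0218).

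Gdf15, a hormone released by stressed tissues, was close to the detection limit at 2.01, 4.14 and 2.05 CPM in gWAT WT, 0.752, 0.364 and 0.365 CPM in gWAT KO, 1.38, 1.61, 1.93 and 0.991 CPM in heart WT and 3.01, 0.926, 2.41 and 1.48 CPM in heart KO. Only the gWAT groups were apart. Its difference was -2.87 ± 0.61 (adjusted p = 0.0358). Aldh1l2, the mitochondrial 10-formyltetrahydrofolate dehydrogenase that follows Mthfd2 in the folate pathway, fell in gWAT by an effect of -1.27 ± 0.32 and was at 0.31 ± 0.18 in heart. Its difference of -1.59 ± 0.37 narrowly missed the threshold (adjusted p = 0.0506).

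Other genes of the list did not pass. Trib3, a pseudokinase induced by ATF4, had a difference of -1.10 ± 0.34 (adjusted p = 0.125). Atf4 itself fell in gWAT (-0.47 ± 0.14, adjusted p = 0.0373) and was at -0.08 ± 0.12 in heart, and the difference did not pass (adjusted p = 0.321). Asns, asparagine synthetase, rose in gWAT from 30.01 ± 3.22 to 48.2 ± 5.80 CPM (SD, n = 3), opposite to Mthfd2, with a difference of 0.38 that did not pass (adjusted p = 0.611). Aldh1l2, Trib3, Atf4 and Asns were singled out after their values were seen.

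**Figure D2:**
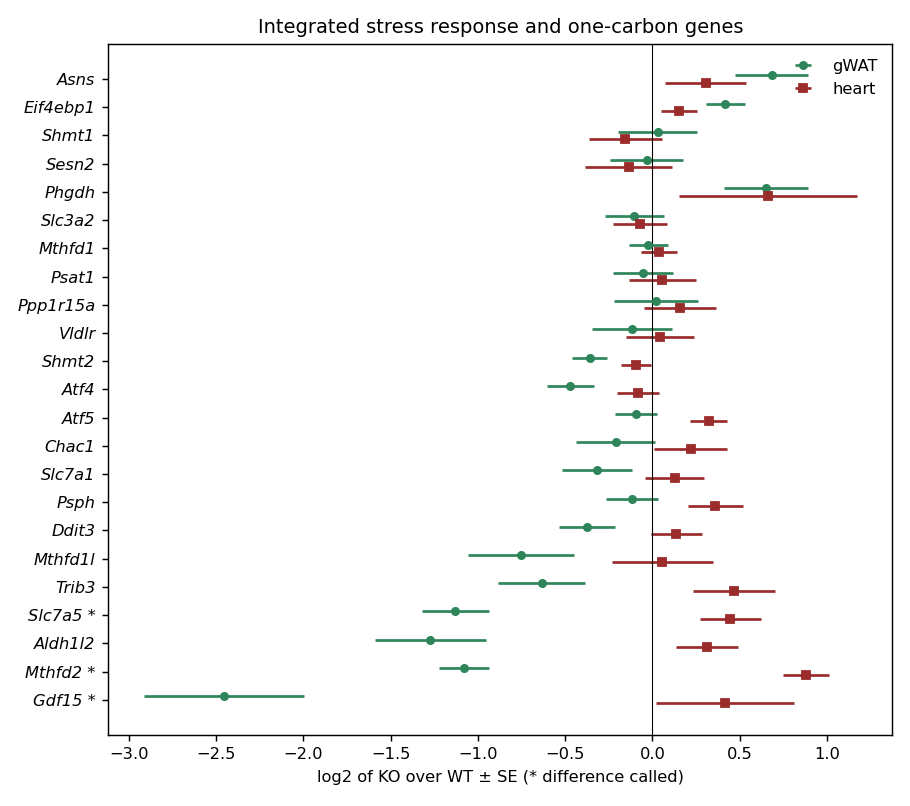
Log2 effect of KO over WT with its SE for the 23 genes of the integrated stress response and one-carbon list, in gWAT (circles) and heart (squares), ordered by the difference, with an asterisk where the difference passed. Mthfd2 lies at -1.08 in gWAT and 0.88 in heart, and Asns and Eif4ebp1 lie above 0 in both.

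Counting Mthfd2 and Slc7a5, 10 of the 176 genes had a heart effect with an unadjusted p under 0.05, and in all 10 the heart effect was opposite in sign to that in gWAT. A difference is the sum of the 2 sizes when signs are opposite, so the test itself favours such genes. Scamp5, a membrane protein of secretory vesicles, was at 28.8 ± 2.09 CPM (SD, n = 3) in gWAT WT and 18.4 ± 0.745 CPM in KO, and at 9.30 ± 0.457 CPM (n = 4) in heart WT and 11.1 ± 1.21 CPM in KO. The difference was -0.90 ± 0.14 (adjusted p = 0.0218). Tpp1, a lysosomal tripeptidyl peptidase, had effects of -0.43 ± 0.09 in gWAT and 0.17 ± 0.08 in heart, where KO lay just above WT without overlap. Plxnc1, a semaphorin receptor, had effects of -0.99 ± 0.20 and 0.41 ± 0.19.

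In the other direction, the means of Lrrn4cl, Ahcyl2 and Lonrf2 were higher in KO gWAT and lower in KO heart. Lrrn4cl was at 38.6, 38.4 and 35 CPM in gWAT WT and 44, 47.5 and 50.3 CPM in KO, and at 17.5, 15.6, 17 and 16.1 CPM in heart WT and 12.4, 12.4, 15.1 and 13.3 CPM in KO. The groups did not overlap in either tissue. Its difference was 0.65 ± 0.13 (adjusted p = 0.0334). Ahcyl2, a relative of S-adenosylhomocysteine hydrolase, gave 0.68 ± 0.14 (adjusted p = 0.0338), also with no overlap in either tissue. Lonrf2 was at 8.70, 9.11, 9.44 and 9.32 CPM in heart WT and 5.02, 5.66, 6.22 and 6.43 CPM in heart KO, an effect of -0.65 ± 0.19. In gWAT it was at 3.90, 1.84 and 3.41 CPM in WT and 4.13, 5.36 and 5.26 CPM in KO, and its effect of 0.69 ± 0.22 did not pass there (adjusted p = 0.0542). The difference was 1.34 ± 0.29 (adjusted p = 0.0384). The other 2 genes of the 10 were Sema3f and Gm16589.

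Most of the lysosomal genes fell in gWAT, and none passed in heart. Of 31 genes of the vacuolar proton pump, which acidifies lysosomes, and of lysosomal enzymes and membrane proteins, 9 (29%) differed between the tissues and all 31 differences lay below 0, with a median of -0.59 log2. Over all genes 1.36% differed. In gWAT 20 of the 31 fell, against 7.51% of all genes. In heart none passed, and the effects spanned only -0.15 to 0.17. The 9 genes were Atp6v1b2, Atp6v0a1, Atp6v1a and Atp6v1c1 of the pump, the hydrolases Tpp1, Hexa and Gusb, and Grn and Psap, whose products work in lysosomes. The count was 17 without gWAT WT 1. Without gWAT WT 3 it was 1, and without any other gWAT library it was 0. Without any 1 heart library it was 1 to 4, and with the heart block it was 1. The median lay between -0.69 and -0.43 in all fits.

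Atp6v1b2, a subunit of the ATP-hydrolysing part of the pump, was at 259.9, 403 and 349.6 CPM in gWAT WT and 171, 159 and 166 CPM in KO. In heart it was at 70.3, 84.2, 83.6 and 78.2 CPM in WT and 79, 75.2, 79.7 and 85.2 CPM in KO. The gWAT groups were apart and the heart groups were mixed. The effects were -1.03 ± 0.13 in gWAT and 0.01 ± 0.11 in heart, where the 95% interval was -0.23 to 0.25. The difference was -1.04 ± 0.17 (adjusted p = 0.0218). Atp6v0a1, of the membrane part, gave -0.93 ± 0.17 (adjusted p = 0.0218) and Atp6v1a gave -0.82 ± 0.16 (adjusted p = 0.0307).

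The same direction held for the lysosomal proteases cathepsin L and cathepsin D. Ctsl was at 1074, 1589.5 and 1482 CPM in gWAT WT and 616, 650.02 and 662 CPM in KO, against 171, 176, 163 and 156 CPM in heart WT and 201, 193, 168 and 157 CPM in KO. The difference was -1.21 ± 0.18 (adjusted p = 0.0167). Ctsd, singled out after its values were seen, gave -0.86 ± 0.18 (adjusted p = 0.0353), and 0.0581 with the heart block.

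Upstream sequences of Atp6v1a and Ctsd are shown because many lysosomal genes carry the element TCACGTGA, the palindromic core bound by TFEB and its relatives. Both are 250 bases before the RefSeq start on GRCm38.p6, for Atp6v1a chr16:44139260-44139509 and for Ctsd chr7:142387828-142388077, both on the minus strand, and capitals mark the element, which begins 132 bases before the start in Atp6v1a and 99 bases before it in Ctsd.
Atp6v1a: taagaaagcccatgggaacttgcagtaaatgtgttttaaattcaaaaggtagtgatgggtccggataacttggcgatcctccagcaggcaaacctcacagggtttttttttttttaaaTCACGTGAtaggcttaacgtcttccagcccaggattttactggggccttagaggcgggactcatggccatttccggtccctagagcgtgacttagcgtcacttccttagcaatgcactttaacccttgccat
Ctsd: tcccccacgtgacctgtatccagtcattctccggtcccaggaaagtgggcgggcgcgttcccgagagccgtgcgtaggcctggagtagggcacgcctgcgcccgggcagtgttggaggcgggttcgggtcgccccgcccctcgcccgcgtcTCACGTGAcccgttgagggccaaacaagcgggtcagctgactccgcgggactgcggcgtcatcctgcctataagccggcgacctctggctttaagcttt
The element, which contains the shorter CACGTG, stood in 0.785% of all upstream windows, in 1.46% of those of the 12966 genes and in 4 of 27 windows (14.8%) of the lysosomal list, those of Atp6v1a, Ctsa, Gla and Mcoln1. Among the 9 lysosomal genes whose effects differed, 7 had an entry, and 1 of their 8 windows, that of Atp6v1a, held it. Ctsd is not in the lysosomal list, so these counts leave it out. Both windows shown hold the element and are not typical of the list. The windows were chosen after the values were seen, and a match describes letters, not a bound site. Against the annotated gene spans, the Atp6v1a window lay inside the gene and the Ctsd window partly so.

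Markers of macrophages moved with the lysosomal genes. Of 13 genes of lipid-associated macrophages detected in both tissues, all fell in gWAT, and 5 differed from heart (38.5%), Ctsl, Lipa, Gpnmb, Ctsd and Trem2. Of these Ctsl, Ctsd and Lipa are lysosomal enzymes of many cell types. The median effect was -1.78 log2 in gWAT and 0.05 in heart. Of 19 general macrophage genes 16 fell in gWAT, and Mpeg1 alone differed from heart (5.26%), with a median difference of -0.94. Over all genes 7.51% fell in gWAT and 1.36% differed, and in a list of 19 a single gene makes 5.26%. The 14 lipid-associated genes in the table summed to 3966 to 9573 CPM in gWAT WT and 2304 to 2428 CPM in KO, and to 754 to 960 CPM across the heart libraries. None of the 14 was at 0 in any group. Whether gWAT of KO mice held fewer such cells or less of these RNAs per cell cannot be told apart in bulk tissue. Their part in the lysosomal result was not tested.

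Gpnmb, a surface glycoprotein of lipid-laden macrophages, was at 307, 2073 and 1422 CPM in gWAT WT and 118, 119 and 149 CPM in KO. In heart it was at 3.62, 2.77, 4.87 and 3.67 CPM in WT and 2.92, 5.04, 5.10 and 4.94 CPM in KO. The lowest gWAT WT library, number 1, was still above all KO libraries. The difference was -3.57 ± 0.68, with a wide 95% interval of -5.02 to -2.13 (adjusted p = 0.0289). Lipa, lysosomal acid lipase, was at 239, 582 and 471 CPM in gWAT WT and 121, 137 and 136 CPM in KO, with a difference of -1.69 ± 0.29 (adjusted p = 0.0218). Mpeg1, a pore-forming protein of macrophages, gave -1.64 ± 0.36 (adjusted p = 0.0413). All 13 lipid-associated and 16 of the general genes differed without gWAT WT 1, and without any other gWAT library 0 or 1 of the 13 and 0 of the 19 did. Without any 1 heart library 2 or 3 of the 13 and 0 of the 19 did, and with the heart block 2 and 0.

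Tissue-resident macrophage genes did not follow. Of 12 such genes 4 rose in gWAT, none fell and none differed from heart, and the median difference was 0.66 log2. Over all genes 4.02% rose in gWAT and 1.36% differed. Without gWAT WT 1, 4 of the 12 differed, all above 0, and with DESeq2 3 did. Retnla, a secreted protein of alternatively activated macrophages, rose in gWAT (1.61 ± 0.34) and was at -0.19 ± 0.34 in heart, with a difference of 1.80 ± 0.48 (adjusted p = 0.0754). Ccl24, a chemokine, had a difference of 1.76 ± 0.47 (adjusted p = 0.0789). Among 15 genes of antigen presentation H2-DMb1, which loads class II molecules, differed with -1.06 ± 0.23 (adjusted p = 0.0410) and the others did not pass. It passed in the fit without gWAT WT 1, while no gene of the list did without any 1 other library.

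**Figure D3:**
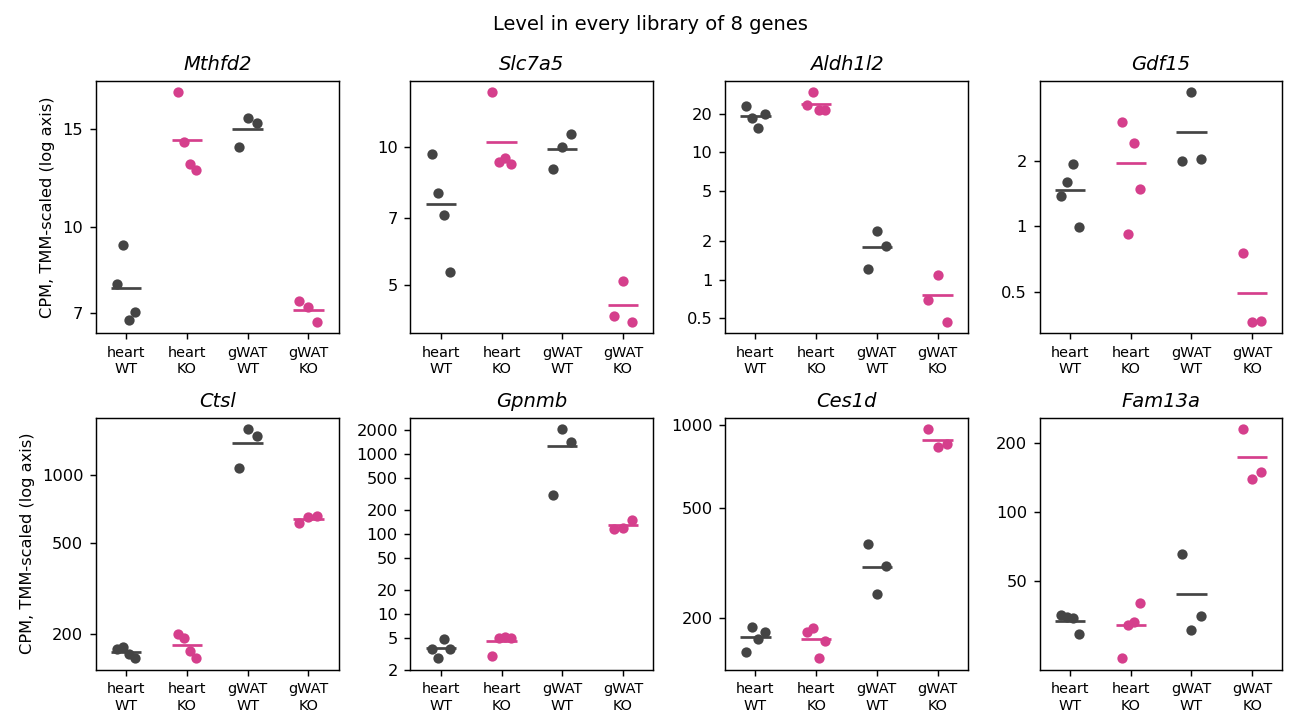
TMM-scaled CPM on a log axis for 8 genes, 1 panel per gene, where each point is a library and each line a group mean, WT in grey and KO in pink. Mthfd2 is lower in KO gWAT and higher in KO heart, while Ctsl, Gpnmb, Ces1d and Fam13a part only in gWAT.

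Genes of lipid droplets and cholesterol esters were among those with the smallest p below 0. Plin2, which coats lipid droplets in many cell types, was at 751, 1305 and 1150.1 CPM in gWAT WT and 397, 369.9 and 390.03 CPM in KO. Heart held 47.5, 52.3, 63.1 and 53.7 CPM in WT and 51.7, 42.2, 57.4 and 65.6 CPM in KO, with the groups mixed. The difference was -1.47 ± 0.25 (adjusted p = 0.0218). Nceh1, which hydrolyses cholesterol esters, was more abundant in heart, at 237, 236, 275 and 278 CPM in WT and 253, 272, 282 and 316 CPM in KO, than in gWAT, at 56.1, 142 and 122 CPM in WT and 23.5, 29.2 and 28.5 CPM in KO. Its effects were -1.98 ± 0.24 in gWAT and 0.13 ± 0.20 in heart, a difference of -2.11 ± 0.31 (adjusted p = 0.0164).

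In the pathway of cholesterol synthesis, 13 of 22 genes fell in gWAT and 2 differed from heart (9.09%), with a median difference of -0.60 log2 and 21 of 22 below 0. Over all genes 7.51% fell in gWAT and 1.36% differed. Lss, lanosterol synthase, went from 72.6 ± 6.96 to 37.8 ± 1.85 CPM in gWAT (SD, n = 3) and was at 4.31 ± 0.646 and 4.15 ± 0.351 CPM in heart (n = 4). The difference was -0.88 ± 0.17 (adjusted p = 0.0289). Insig1, the sterol sensor that restrains the pathway, gave -1.09 ± 0.24 (adjusted p = 0.0414). Without gWAT WT 1 the count was 5, without any 1 heart library it was 0 or 1, and without any other gWAT library, or with the heart block, it was 0.

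DNA replication genes differed in 3 of 23 cases (13%, against 1.36% of all genes), all below 0. Mcm3, a subunit of the replicative helicase, was at 16.2, 27.9 and 23.1 CPM in gWAT WT and 10.5, 11 and 10.3 CPM in KO, and between 7.02 and 8.12 CPM in the heart libraries. Its difference was -1.07 ± 0.22 (adjusted p = 0.0337). Rrm2, of ribonucleotide reductase, gave -1.98 ± 0.43 (adjusted p = 0.0410). Pcna, the sliding clamp, gave -0.86 ± 0.19 (adjusted p = 0.0449). The count was 12 without gWAT WT 1, without any other gWAT library it was 0, without any 1 heart library it was 0 or 1, and with the heart block it was 1.

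Cell division genes fell in gWAT in all 19 cases (against 7.51% of all genes), with a median of -1.61 log2, but none differed from heart by the test. In heart 16 of the 19 effects were also below 0, with a median of -0.38. There 2 had an unadjusted p under 0.05, against 2.59% of all genes. The median difference was -1.38. Mki67, the proliferation marker, had effects of -1.87 ± 0.29 in gWAT and -0.29 ± 0.27 in heart and a difference of -1.59 ± 0.39 (adjusted p = 0.0611). Cenpf, a centromere protein, gave -1.88 ± 0.47 (adjusted p = 0.0600). Without gWAT WT 1, 13 of the 19 differed, and with the heart block Cenpf alone did (adjusted p = 0.0471).

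The 176 genes were unevenly spread over levels. WT levels were higher in gWAT than in heart for 94 of the 120 genes with a difference below 0 (78.3%) and for 14 of the 56 above 0 (25%), against 50.7% of all 12966 genes. The same WT values enter the tested difference, so the levels and the sign of the difference are not independent. In 24 of the 176 genes heart WT was under 5 CPM, where a change in heart is hard to see. Some of the genes that fell in gWAT were far more abundant in heart.

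**Figure D4:**
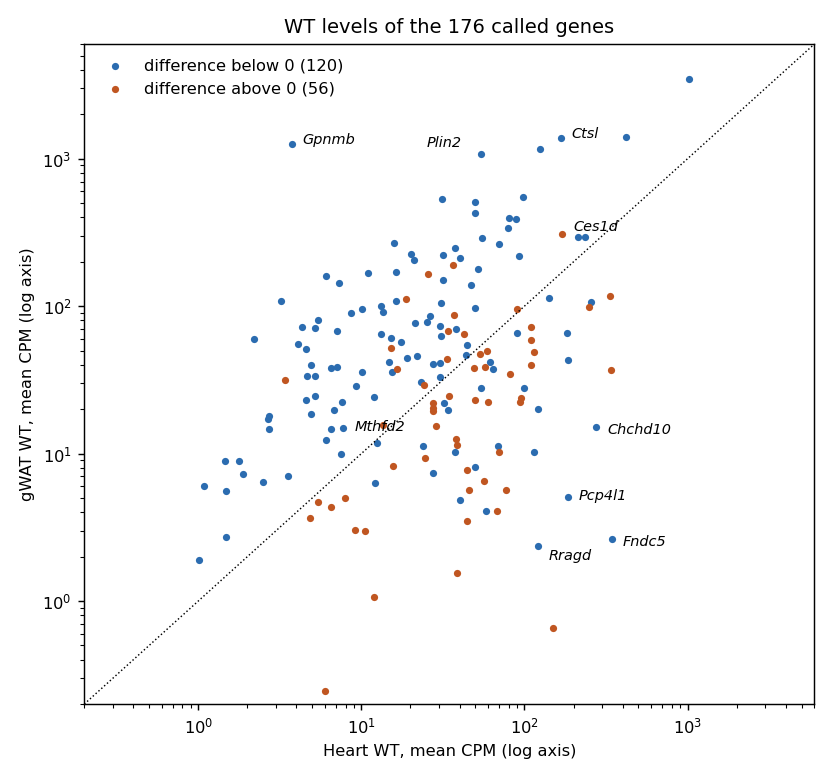
Mean CPM in gWAT WT (n = 3) against heart WT (n = 4), both on log axes, for the 176 genes, in blue where the difference is below 0 and in orange where it is above 0, with a dotted line at equal levels. Of the blue genes 94 lie above the line, and Chchd10, Pcp4l1, Rragd and Fndc5 lie far below it. The WT values on both axes also enter the difference.

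Chchd10, a small protein of the mitochondrial intermembrane space, was at 262, 252, 292 and 296 CPM in heart WT and 337, 232, 253 and 279 CPM in heart KO. In gWAT it was at 16.2, 14.7 and 14.5 CPM in WT and 7.19, 6.14 and 5.62 CPM in KO. The heart groups were mixed and the gWAT groups apart. The difference was -1.25 ± 0.18 (adjusted p = 0.0164). Pcp4l1, a relative of a calmodulin-binding neuronal peptide, was at 196, 203, 161 and 181 CPM in heart WT and 219.6, 186, 165 and 183 CPM in KO, and at 1.83, 7.73 and 5.75 CPM in gWAT WT and 0.322, 0.780 and 0.156 CPM in KO. Its difference was -3.61 ± 0.56 (adjusted p = 0.0194). Rragd, a GTPase that links amino acids and lysosomes to mTORC1, gave -2.34 ± 0.43 (adjusted p = 0.0250). Fndc5, the precursor of irisin, was at 342 ± 19.3 CPM (SD, n = 4) in heart WT and 2.64 ± 0.949 CPM (n = 3) in gWAT WT, and gave -1.53 ± 0.28 (adjusted p = 0.0250). Rragd and Fndc5 were singled out after their values were seen. The 6 heart muscle markers summed to 20.4 to 21.6 CPM in gWAT WT and 15.1 to 16.9 CPM in gWAT KO, so they were also slightly lower in KO, and their part in these values was not tested.

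Gyg, Pdxk and Rnf128 were well expressed in both tissues and fell in gWAT. Gyg, glycogenin, the primer of glycogen synthesis, was at 119, 105 and 118 CPM in gWAT WT and 74.5, 73.8 and 71.4 CPM in KO, and at 138, 132, 143 and 156 CPM in heart WT and 151, 154, 143 and 148 CPM in KO. The spread between libraries was small, and the difference was -0.71 ± 0.11 (adjusted p = 0.0210). Pdxk, the kinase that activates vitamin B6, was at 145, 157 and 150.2 CPM in gWAT WT and 82.7, 78.4 and 81.2 CPM in KO, against 31.5 ± 3.15 CPM (SD, n = 4) in heart WT and 31.3 ± 2.14 CPM in heart KO. Its difference was -0.89 ± 0.12 (adjusted p = 0.0136). Rnf128, a membrane ubiquitin ligase, was at 10.7, 41.7 and 30.9 CPM in gWAT WT and 3.22, 4.16 and 5.10 CPM in KO and gave -2.69 ± 0.45 (adjusted p = 0.0218).

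Among the 56 genes with a difference above 0, Ces1d had the smallest p. It encodes a carboxylesterase that hydrolyses triglycerides. Ces1d (ENSMUSG00000056973, chr8:93166068-93197838) was at 371, 243 and 308 CPM in gWAT WT and 967, 837 and 852 CPM in KO. In heart it was at 150.3, 186, 167 and 177 CPM in WT and 178, 184, 143 and 164 CPM in KO. Every KO gWAT library was over 2-fold above every WT one, and the heart groups were mixed. The effects were 1.53 ± 0.15 in gWAT and -0.02 ± 0.13 in heart, with a heart interval of -0.29 to 0.24. The difference was 1.55 ± 0.19 (adjusted p = 0.00611), and it passed in 28 of 30 alternative fits. Near-identical carboxylesterase genes lie beside it, so reads may have been shared between copies.

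Fam13a, a gene that human genetics links to body fat distribution, was at 65.4, 30.4 and 35.1 CPM in gWAT WT and 229, 139 and 149 CPM in KO, and at 35.2, 34.7, 34.2 and 29.2 CPM in heart WT and 22.9, 32, 33.1 and 40.04 CPM in KO. The lowest KO gWAT library was above the highest WT one, and the difference was 2.04 ± 0.35 (adjusted p = 0.0218). Agt, angiotensinogen, which adipocytes secrete, was at 40.1, 25.2 and 28.7 CPM in gWAT WT and 110.1, 92.1 and 103 CPM in KO, and gave 1.53 ± 0.29 (adjusted p = 0.0269). Irs1, the insulin receptor substrate, was at 22.8, 21.9 and 21.7 CPM in gWAT WT and 36, 40.1 and 52 CPM in KO, and at 25, 25.6, 31.7 and 27.3 CPM in heart WT and 19, 25.9, 26.1 and 28.3 CPM in KO. It gave 1.09 ± 0.20 (adjusted p = 0.0269), and it was the 1 of 22 insulin signalling genes that differed (4.55%, against 1.36% of all genes). In the fit without gWAT WT 1, 5 of the 22 differed above 0 and 1 below, and without gWAT WT 3, WT 4, KO 3 or KO 4, or heart WT 1, WT 2, WT 3 or KO 3, none did.

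Several enzymes and signalling genes followed. St3gal6, a sialyltransferase, was at 7.80, 7.18 and 8.19 CPM in gWAT WT and 14, 13.7 and 14.9 CPM in KO, and gave 0.89 ± 0.12 (adjusted p = 0.0136). Sqor, which oxidises hydrogen sulphide in mitochondria, was at 38.9, 39.9 and 35.3 CPM in gWAT WT and 69.3, 61.1 and 66.8 CPM in KO, and at 49.3 ± 1.85 CPM (SD, n = 4) in heart WT and 50.3 ± 3.13 CPM in heart KO. Its difference was 0.76 ± 0.11 (adjusted p = 0.0167). Pde1a, a calmodulin-dependent phosphodiesterase, gave 1.47 ± 0.25 (adjusted p = 0.0218). Dock11, an activator of the GTPase CDC42, gave 1.09 ± 0.17 (adjusted p = 0.0171), with a heart effect of -0.24 ± 0.12.

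The remaining named genes above 0 shared an adjusted p of 0.0218. Pcsk6, a proprotein convertase, gave 1.41 ± 0.25, with effects of 1.13 ± 0.19 in gWAT and -0.28 ± 0.16 in heart. Ppm1l, a phosphatase of stress kinases, gave 0.85 ± 0.15. Pacsin3, a membrane-shaping protein of muscle, gave 0.99 ± 0.18. Asb13, of a ubiquitin ligase complex, gave 0.84 ± 0.15, and Aff3, a nuclear protein of transcription elongation complexes, gave 1.12 ± 0.20.

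As groups, adipocyte genes and mitochondrial amino acid enzymes leaned above 0 with few or no single calls. Of 19 white adipocyte genes 5 rose in gWAT, against 4.02% of all genes, and 1, Agt, differed from heart (5.26%, against 1.36%). The median difference was 0.74 log2, with 18 of 19 above 0. Part of that sum comes from heart, where 15 of the 19 effects were below 0 with a median of -0.12 and where the adipocyte markers varied between 13.8 and 148 CPM in WT and between 21.4 and 100.4 CPM in KO. The part of attached fat was not tested. Of 21 genes of branched-chain amino acid breakdown 9 rose in gWAT and none differed from heart, with a median difference of 0.43. Ivd, isovaleryl-CoA dehydrogenase, gave 0.83 ± 0.20 (adjusted p = 0.0549) and Dbt, of the branched-chain ketoacid dehydrogenase, 0.66 ± 0.20 (adjusted p = 0.111). Without gWAT WT 1, 8 adipocyte genes and 11 genes of branched-chain amino acid breakdown differed, all above 0, and without any other gWAT library none of either list did. Without any 1 heart library the adipocyte count was 0 to 2 and the other 0. The adipocyte median was 1.25 without heart KO 4 and 1.62 with heart numbers 1 and 2 only, against 0.51 with 3 and 4 only.

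All 13 mesothelial genes had a difference above 0, with a median of 1.23 log2, and none passed. The median was 0.79 without heart WT 2, 0.49 with heart numbers 3 and 4 only and 1.44 with 1 and 2 only, and 1 gene passed without gWAT WT 1. Wt1, a mesothelial transcription factor, rose in gWAT, at 15, 6.18 and 9.12 CPM in WT and 16.2, 31 and 17.8 CPM in KO, and its difference was 1.18 ± 0.44 (adjusted p = 0.204). Krt8, a keratin, gave 1.68 ± 0.78 (adjusted p = 0.323). The 13 genes summed to 279 to 549 CPM in gWAT WT and 723 to 1033 CPM in gWAT KO, and to 97.0 to 610 CPM in heart, so heart levels spread more than 2-fold within each genotype. The 10 mitochondrially encoded genes likewise had a median difference of 0.65 with 0 calls. Part of that difference comes from heart, where all 10 effects were below 0 with a median of -0.15. In gWAT their median was 0.45, and 1 of the 10 passed as higher. Among the 10, mt-Cytb gave 0.81 ± 0.29 (adjusted p = 0.194). Without gWAT WT 1, 6 of the 10 passed, against 0 without any 1 other library.

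**Figure D5:**
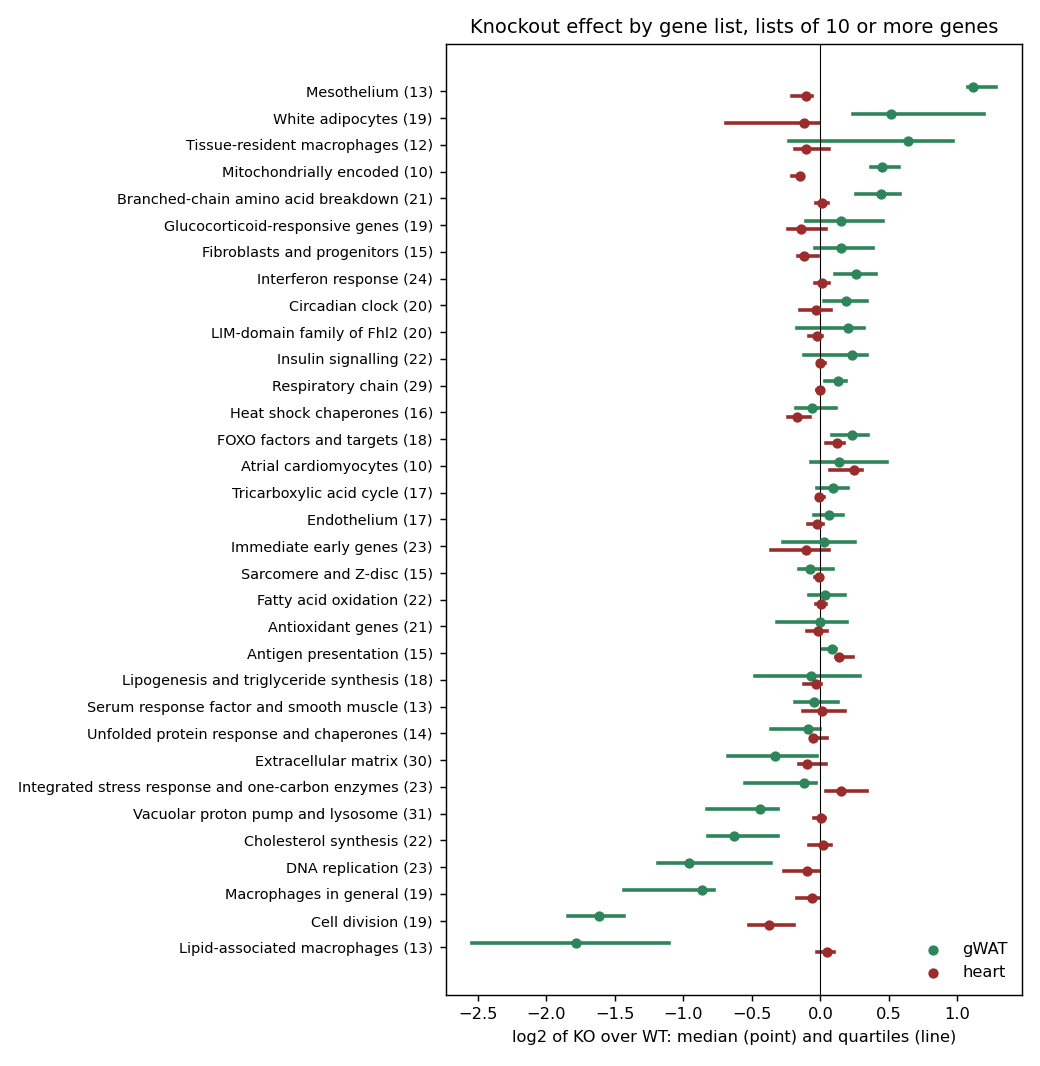
Median (point) and quartiles (line) of the log2 effect of KO over WT in gWAT (green) and heart (red) for each gene list with at least 10 genes detected in both tissues, whose number stands in parentheses, ordered by the median difference. In gWAT the medians run from -1.78 for lipid-associated macrophages to 1.11 for mesothelium, while in heart they lie between -0.38 and 0.25.

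Other groups showed no difference between tissues in the test. None of 29 respiratory chain genes differed (median 0.15 log2), nor any of 22 fatty acid oxidation genes (0.00), 17 of the tricarboxylic acid cycle (0.09), 15 of the sarcomere and Z-disc (0.01) or 17 of endothelium (0.07), for example Kdr, the VEGF receptor, at 0.36 ± 0.26 (adjusted p = 0.551). Of 30 extracellular matrix genes none passed. Collagen Col1a1 fell in gWAT (-1.03 ± 0.20) and narrowly missed the test of the difference at -1.11 ± 0.27 (adjusted p = 0.0549), and Thbs1, thrombospondin, rose in gWAT with a difference of 1.88 ± 0.51 (adjusted p = 0.0798). Of 23 immediate early genes none passed, with Fos at -1.47 ± 0.66 (adjusted p = 0.304). Among 20 LIM-domain genes, Fhl2 itself counted as 1 of them, none passed. Fhl2 passed in 1 of the 30 alternative fits. Without gWAT WT 1, 2 LIM-domain genes passed above 0 and 1 below, as with DESeq2, and 3 matrix, 2 sarcomere and 1 fatty acid oxidation genes passed. Fhl3, which had the smallest p of the list, went from 5.56, 14.8 and 12.9 CPM in gWAT WT to 3.27, 3.17 and 3.12 CPM in KO, gave -1.78 ± 0.48 (adjusted p = 0.0794) and was at -0.01 ± 0.34 in heart, and Tgfb1i1 gave 0.66 ± 0.18 (adjusted p = 0.0832).

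Genes beside Fhl2 were looked at on their own, since a targeted locus may still be flanked by DNA of the embryonic stem cells, whose strain is not labelled, and such DNA would be present in both tissues. Within 20 Mb of Fhl2 lay 156 of the genes, of which 4 differed between the tissues (2.56%, against 1.36% of all). Aff3 and Lonrf2 were among those above 0, and Hs6st1, a heparan sulphate sulphotransferase, was below 0 (-0.72 ± 0.15, adjusted p = 0.0353). In gWAT 19 of the 156 passed (12.2%, against 11.5%), and in heart 7 had an unadjusted p under 0.05 (4.49%, against 2.59%). Npas2, a clock factor that lies at -3.88 Mb from Fhl2, toward the chromosome start, had effects near those of Mthfd2 without passing. It was at 1.46, 1.43, 1.52 and 1.09 CPM in heart WT and 2.83, 1.75, 1.95 and 3.56 CPM in KO, and at 0.573, 2.24 and 2.05 CPM in gWAT WT and 0.591, 0.572 and 1.15 CPM in KO. Its difference was -1.95 ± 0.60 (adjusted p = 0.119). Il1r1, the interleukin-1 receptor, had effects of -0.67 ± 0.16 in heart and 0.25 ± 0.18 in gWAT and a difference of 0.91 ± 0.24 (adjusted p = 0.0726). An effect of the knockout and one of neighbouring DNA cannot be told apart for these genes. Npas2, Il1r1 and Hs6st1 were singled out after their values were seen.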

How the data were processed

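The deposited table holds whole-number read counts per Ensembl gene with no normalization, 1 column per library, and 0 columns without a sample. Build mm10 and the tools HTSeq 0.11.0, HISAT2 2.1.0, Trimmomatic 0.32, limma, Picard and FastQC are listed in the submitters' processing notes without their roles. Neither the annotation release nor the strand setting is given in the sources used here, so values of overlapping, antisense and near-identical genes are uncertain.

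All 14 libraries entered 1 fit with 4 group means. After filterByExpr by group 16014 genes were left. TMM scaling and the quasi-likelihood F test of edgeR 4.0.16 (R 4.3.3) followed, and p-values were adjusted over these 16014 genes by Benjamini-Hochberg, with calls at 0.05. An SE is the effect divided by the square root of F, and intervals are 95%. Printed CPM are on TMM-scaled library sizes, whereas the choice of genes used library totals. DESeq2 1.42.0 and limma 3.58.1 served as alternatives, and the method was tested on simulated data. Reads of IDs without a symbol make up 0.0132%.

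Named genes are Fhl2, the 12 smallest p in each direction (predicted genes left out), up to 8 of opposite sign in the 2 tissues, and leading members of lists, besides those said to be singled out. Of the genes this rule named, 1 is not reported here. The genes and the 37 lists were chosen with earlier results of these data known. Lists are described by counts and medians, without a test. Positions are from GENCODE M21 and upstream sequences from RefSeq (GRCm38.p6), which had an entry for 9642 of the genes and 140 of the 176.

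Replicate numbers were checked by the correlation of deviations from group means. Same-numbered WT and KO libraries gave 0.209 to 0.363 in heart but -0.245 to 0.036 in gWAT, and same-numbered heart and gWAT libraries of 1 genotype gave -0.0426 to 0.264. Only in heart were all values of same-numbered WT and KO libraries above 0. The labels do not say whether same-numbered heart and gWAT libraries came from 1 mouse. Correlations across such unlike tissues cannot settle it. The main fit used no pairing. With genotype and number as a block 29 genes passed, 21 of them among the 176. Heart libraries of numbers 1 and 2, or 3 and 4, gave 0.132 to 0.441 across the genotypes, so these values do not set the number apart from that split. No 2 libraries were duplicates.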

Additional observations from a re-analysis of the deposited data

Results flagged for a closer look

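The number of genes whose knockout effect differs between gWAT and heart was 176 by the test of the difference itself. Of those named, 8 had opposite signs in the tissues, with an unadjusted p under 0.05 in heart and, except for Lonrf2 in gWAT, an adjusted p under 0.05 in gWAT. Their differences, gWAT less heart on the log2 scale, were -1.96 for Mthfd2, -0.90 for Scamp5, -1.57 for Slc7a5, -0.60 for Tpp1, -1.40 for Plxnc1, 0.65 for Lrrn4cl, 0.68 for Ahcyl2 and 1.34 for Lonrf2.

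In heart, 1 library stood apart from the other 3 of its group for 11 of 136 groups of 4 looked at, where chance gives about 1 in 20. Heart KO 1 was such a library for Slc7a5 at 13.1 CPM, Trib3 at 9.04 CPM, H2-DMb1 at 8.49 CPM and Ctsd at 492 CPM, all high, and for Gpnmb at 2.92 CPM, low. Heart KO 3 was low for Pdxk at 28.1 CPM and high for Col1a1 at 114.5 CPM. Heart WT 1 was low for Dock11 at 13.1 CPM. Heart WT 3 was low for Rnf128 at 50.9 CPM and high for Fos at 35.6 CPM. Heart WT 4 was low for Fam13a at 29.2 CPM.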

How the results depend on the processing

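The count of 176 genes was 185 with RLE scaling, 153 with library totals, 162 with a robust fit and 251 with only the genes of both tissues in the fit. It was 490 without a filter, 635 with DESeq2, 68 with limma-voom and 49 with limma-voom weighted per tissue. It was 175 with the replicate block by number. With the replicate block by genotype and number, a pairing that the correlations cannot decide, it was 29. It was 334 with a heart covariate for numbers 1 and 2, 5 with heart numbers 1, 3 and 4, 517 at an adjusted p of 0.1, 2 at 0.01 and 137 for genes at 5 CPM. Leaving out 1 library gave 3 to 1232. Of alternatives added after seeing the data, the heart-only replicate block gave 66, heart numbers 1 and 2 only 1, heart numbers 3 and 4 only 1, and gWAT numbers 3 and 4 only 1214. All 176 genes had the same direction and an unadjusted p under 0.05 in every fit, but they were chosen by that p. The 1495 genes in gWAT became 643 at 0.01, 2547 with gWAT numbers 3 and 4 only and 721 to 2649 without 1 library. The heart count of 1 was 0 at 5 CPM, since Fhl2 is then left out for its gWAT level, and 1 to 2 without 1 library. It was 2 with RLE, no filter, the genes of both tissues, DESeq2, the robust fit, the heart covariate, the heart-only replicate block, an adjusted p of 0.1 and heart numbers 3 and 4 only. The second gene was Mthfd2, and Myl4 in the last. The cause was not tested. Library totals shifted the median difference of all genes by -0.09. Genes under 5 CPM in heart WT, 24 of the 176, are limited by depth there.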
